A study of Mus musculus with 6 samples.

Results

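Isg15, Parp9, Ifit3b and Irgm2 of the interferon response and Nlrc5 and Tapbpl of antigen presentation were followed in RAW264.7, a macrophage-like mouse cell line, with and without interference against Tim-3, an immune receptor encoded by Havcr2. Each was found by matching target accessions, without versions, to the transcripts, symbols and synonyms of the RefSeq mouse gene table (assembly GRCm38.p6). Each of the 6 matched 1 target, read by 3 probes, out of 44170 targets on the array. Only 2.87% of all targets could be given a symbol, so further targets of these genes may be on the array unnamed. The targets were NM_015783 for Isg15, BC003281 for Parp9, NM_001005858 for Ifit3b, NM_019440 for Irgm2, AK220210 for Nlrc5 and BC017613 for Tapbpl. The 6 genes were selected with results of this same comparison known, in particular that Isg15 was higher and that Parp9 and Nlrc5 leaned the same way. Their differences between the groups are therefore a description, and no test is drawn from them.

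One group was 3 arrays of cells that carried the vector pRNAi-U6H1 encoding a Tim-3 interfering RNA, and the other was 3 arrays of cells with a control interfering RNA in that vector. Stable Tim-3 knockdown clones had been selected with G418, and each array came from its own culture, so the spread between arrays is that between cultures. The sources used here do not say how many clones stand behind each group. No stimulus is named in the labels.

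Interferons bind receptors at the cell surface and act through JAK kinases, STAT proteins and interferon regulatory factors, which bind short promoter elements and switch on a broad set of genes. Type I interferon acts mainly through the interferon-stimulated response element (ISRE), and interferon gamma mainly through the gamma-activated site (GAS). In macrophages these genes restrict viruses and intracellular microbes, and they raise the processing of peptides and their loading on MHC class I molecules.

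Control replicate 3 stood apart from the other arrays. Pearson's r of log2 intensities over all targets, which are not independent replicates, was 0.965 to 0.972 between it and the others and 0.982 to 0.990 among the other 5. Of 24 hepatocyte genes listed as markers of another cell type, 4 were measured under a symbol (Apoc1, Hpn, Kng1 and Pklr). Their summed intensity was 180 on control replicate 3, against 8330 or more on the other control arrays and 7270 to 8270 on the knockdown arrays. Each read a log2 intensity of 9.39 or more on those 5 arrays, above the median level of 7.71 over all targets. Why markers of another cell type read brightly on 5 arrays and dimly on control replicate 3 was not tested. Of 22 macrophage identity genes only Ptprc, the leukocyte antigen CD45, was measured under a symbol. The others may be on the array among the targets without a symbol. Ptprc had a dim log2 intensity of 7.24 ± 0.25 in knockdown and 7.42 ± 0.21 in control cells (SD, n = 3). The macrophage label is thus hardly checked by these targets, and the part of cell identity in the results was not tested. Havcr2 was not analysed here, and the labels were thus not checked on it. The number of arrays, 3 per group, limits the precision.

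The promoters of the 6 genes were examined for elements that interferon signalling uses. The RefSeq promoter table (GRCm38.p6) held Isg15, Ifit3b and Irgm2, and these 3 sequences are shown because each contains an ISRE-type match. Each line gives the 250 bases before the transcript start on the strand of the gene, 5′ to 3′, with the ISRE-type matches in capitals. The windows are chr4:156200819-156201068 on the minus strand for Isg15, chr19:34607707-34607956 on the plus strand for Ifit3b and chr11:58214727-58214976 on the plus strand for Irgm2. The RefSeq gene table starts Ifit3b at 34607530, so its window lies inside the gene as listed there. Positions for Ifit3b refer to the start used in the promoter table.
Isg15: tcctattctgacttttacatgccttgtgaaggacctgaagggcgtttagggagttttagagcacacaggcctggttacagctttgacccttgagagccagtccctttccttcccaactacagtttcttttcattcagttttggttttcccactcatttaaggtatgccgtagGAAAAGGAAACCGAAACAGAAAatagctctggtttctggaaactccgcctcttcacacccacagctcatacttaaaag
Ifit3b: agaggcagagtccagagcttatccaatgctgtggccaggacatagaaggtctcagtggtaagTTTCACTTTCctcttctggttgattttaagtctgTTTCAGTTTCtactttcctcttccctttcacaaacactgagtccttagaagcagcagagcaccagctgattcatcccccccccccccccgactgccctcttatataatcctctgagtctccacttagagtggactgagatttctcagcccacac
Irgm2: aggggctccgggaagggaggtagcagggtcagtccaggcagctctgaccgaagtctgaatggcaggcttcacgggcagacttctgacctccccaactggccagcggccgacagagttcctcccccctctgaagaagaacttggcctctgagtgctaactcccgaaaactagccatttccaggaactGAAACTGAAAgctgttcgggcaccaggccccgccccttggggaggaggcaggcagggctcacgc

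The ISRE-type motif was searched as GAAA, any 2 bases and GAAA again, on both strands, so that TTTC, any 2 bases and TTTC counts as well. Isg15 held 3 matches on its own strand that overlap in a single run, starting at -78, -72 and -66 from the transcript start. Ifit3b held 2 matches on the opposite strand, at -188 and -154, and Irgm2 held 1 on its own strand, at -64. Of 32851 promoter windows of this length in the table, 2.98% held the motif. A GAS-type motif, TTCNNNGAA, which reads the same on both strands, was found in 7.02% of the windows. Of the 3 genes only Irgm2 held it, at -75, directly upstream of its ISRE-type match and not overlapping it. Both motifs together occurred in 0.332% of all windows. These matches are letters in a sequence and do not show that a factor bound there. Parp9, Nlrc5 and Tapbpl were not in the promoter table.

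**Figure D1:**
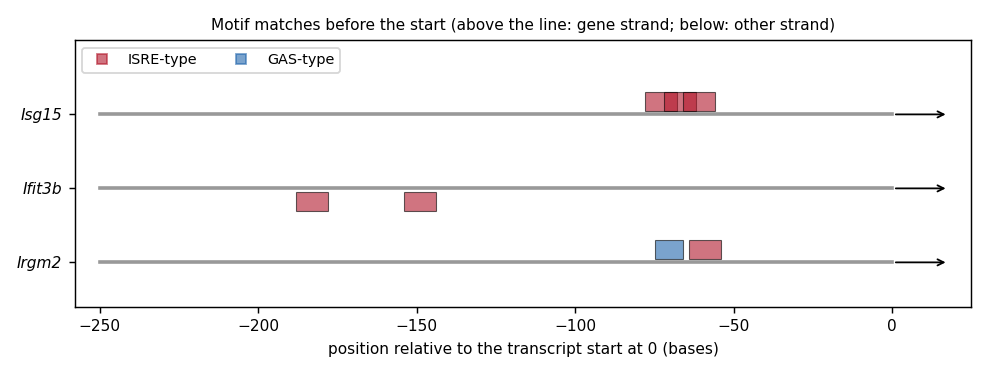
Matches of the ISRE-type and GAS-type motifs in the windows of 250 bases before the transcript starts of Isg15, Ifit3b and Irgm2, with position in bases on the horizontal axis. Boxes above a line are on the gene's strand or read the same on both, boxes below are on the opposite strand, and the 3 overlapping boxes of Isg15 lie near the start while those of Ifit3b lie farther upstream.

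The interferon effectors were led by Isg15, which encodes a ubiquitin-like protein that is conjugated to other proteins and also secreted after interferon. Its log2 intensity was 9.02, 9.50 and 8.89 on knockdown replicates 1 to 3 and 7.70, 7.64 and 7.83 on control replicates 1 to 3. Every knockdown array lay above every control array, with a gap of 1.06 between the lowest knockdown and the highest control value. The group means were 9.14 ± 0.32 and 7.72 ± 0.09 (SD, n = 3), a difference of 1.41 (SE 0.18, 95% interval 0.97 to 1.86), which is 2.67-fold. Of all targets 0.55% had a larger rise. The difference was 1.47 without control replicate 3.

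Parp9 encodes a macrodomain protein of the PARP family that works with the ubiquitin ligase DTX3L in interferon signalling. Log2 intensities of Parp9 were 12.23, 12.00 and 12.05 on the knockdown arrays and 11.73, 11.79 and 11.83 on the control arrays. The groups did not overlap, but only a gap of 0.16 separated them. The means of 12.09 ± 0.12 and 11.78 ± 0.05 (SD, n = 3) differed by 0.31 (SE 0.12, 95% interval 0.03 to 0.59), a 1.24-fold difference, and 18.5% of all targets had a larger rise.

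Ifit3b encodes a tetratricopeptide-repeat protein of the IFIT family, which is induced by interferon and hinders viral RNA translation. On the log2 scale it read 7.45, 7.57 and 7.53 on the knockdown arrays and 7.12, 7.61 and 6.79 on the control arrays. The knockdown values sat close together, while the control values ran from below to above them, with the lowest on control replicate 3. The means were 7.52 ± 0.06 and 7.18 ± 0.41 (SD, n = 3), a difference of 0.34 (SE 0.22, 95% interval -0.19 to 0.87). Without control replicate 3 the difference was only 0.15, and without control replicate 2, the highest control, it was 0.56. Its lowest intensity was 110.7, while the random-sequence probes, the background of these arrays, read 23.1 to 24.5. Ifit3b has a close paralogue in Ifit3, and its 3 probes may read both.

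Irgm2 encodes an immunity-related GTPase that regulates other GTPases of the family on the membranes around intracellular microbes. Its log2 intensity was 9.77, 9.11 and 9.64 on the knockdown arrays and 9.60, 9.36 and 9.69 on the control arrays. Replicate 2 was the lowest in both groups, and the groups overlapped. The means of 9.51 ± 0.35 and 9.55 ± 0.17 (SD, n = 3) differed by -0.04 (SE 0.21, 95% interval -0.54 to 0.45). This interval leaves room for a moderate change in either direction.

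The other 2 genes act in antigen presentation. Nlrc5 encodes the transactivator of MHC class I genes, itself induced by interferon gamma. The log2 intensities of Nlrc5 were 8.996, 9.16 and 9.07 on the knockdown arrays and 8.65, 8.55 and 8.82 on the control arrays. The groups did not overlap, and control replicate 3 came nearest to the knockdown arrays, 0.18 below the lowest of them. The means of 9.08 ± 0.08 and 8.67 ± 0.13 (SD, n = 3) differed by 0.40 (SE 0.12, 95% interval 0.11 to 0.70), a 1.32-fold difference, and by 0.48 without control replicate 3. Of all targets 12.9% had a larger rise.

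Tapbpl encodes TAPBPR, a relative of tapasin that edits the peptides held by MHC class I molecules. On the log2 scale Tapbpl read 11.04, 11.00 and 11.20 on the knockdown arrays and 11.11, 11.09 and 11.11 on the control arrays. The control values were nearly identical and lay inside the range of the knockdown values. The means of 11.08 ± 0.11 and 11.10 ± 0.01 (SD, n = 3) differed by -0.02 (SE 0.11, 95% interval -0.29 to 0.24). Its within-group SD of 0.07 was smaller than that of 94.9% of all targets.

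**Figure D2:**
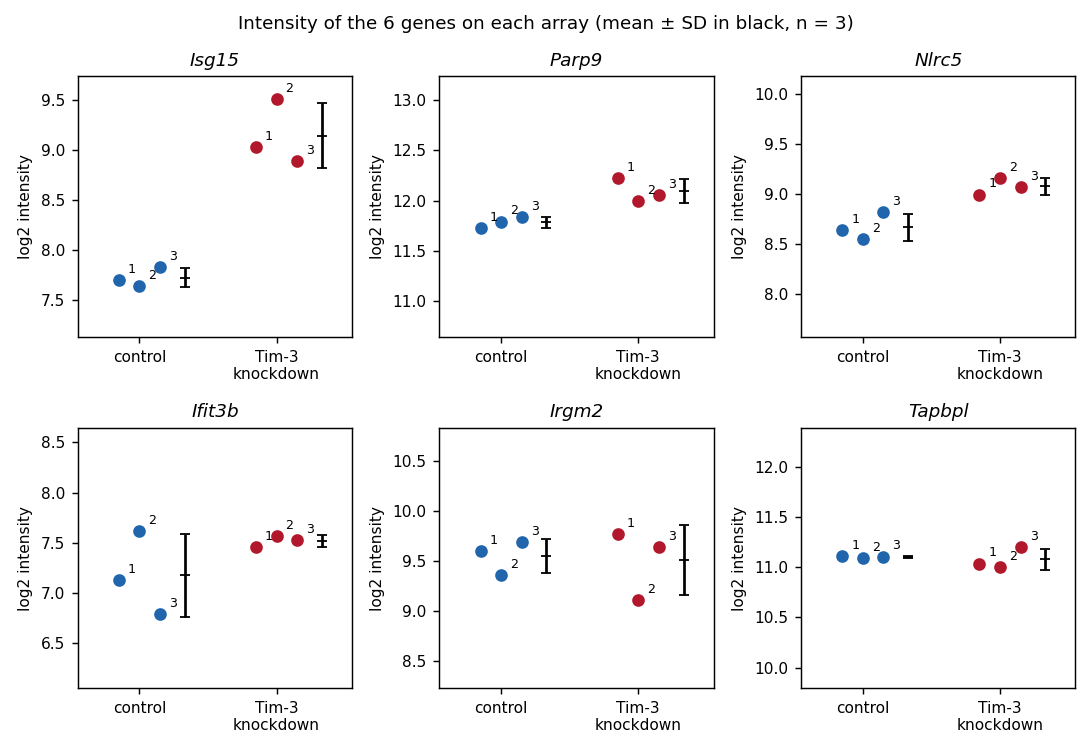
Log2 intensity of the 6 genes on each array, control in blue and Tim-3 knockdown in red, with the replicate number at each point and the mean ± SD (n = 3) in black; all panels span the same log2 range. The groups are separate for Isg15, Parp9 and Nlrc5, with the widest gap (1.06) for Isg15, and overlap for Ifit3b, Irgm2 and Tapbpl.

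Set side by side, 3 of the 6 genes had all knockdown arrays above all control arrays, and the other 3 overlapped. Over all targets 12.1% had all knockdown arrays above all control arrays and 13.0% had all of them below. By limma's test over all 44170 targets, 1 of the 6 genes, Isg15, was past an adjusted p of 0.05 in the upward direction, where 0.505% of all targets were, and none was past it downward, where 0.709% were. By the study's own screen, a 2-fold or greater difference of group means, 1 of the 6 genes, again Isg15, was higher, against 1.6% of all targets. Since the genes were selected on this comparison, nothing is read from these counts. The median difference of the 6 genes was 0.32, beside 0.01 over all targets. Isg15 was called only in fits that kept all 6 arrays. Its limma adjusted p was 0.029 with all arrays and 0.066 to 0.12 when any single array was left out, while the difference stayed between 1.23 and 1.54. The loss of the call was not particular to Isg15. Over all targets the number called higher also fell, from 223 with all arrays to between 0 and 117 with any single array left out. With the replicate number as a block the adjusted p was 0.17.

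**Figure D3:**
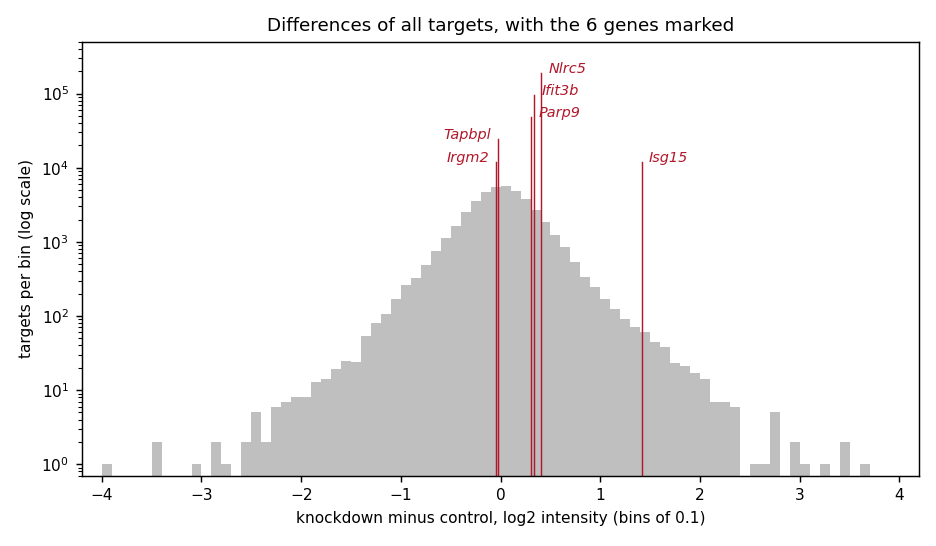
Number of targets (log scale) in bins of 0.1 of the difference, knockdown minus control in log2 intensity, with the 6 genes marked by red lines. Isg15, at 1.41, lies in the upper tail, while the other 5, between -0.04 and 0.40, lie in the body of the distribution.

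The 6 genes also differed in how steady they were between cultures. The within-group SD was 0.09 for Parp9 and 0.11 for Nlrc5, below the median of 0.22 over all targets. It was 0.24 for Isg15, 0.28 for Irgm2 and 0.30 for Ifit3b, above that median. Among the control arrays, control replicate 3 gave the highest value for Isg15, Parp9, Nlrc5 and Irgm2 and the lowest for Ifit3b, while 33.9% of all targets were highest and 37.2% lowest there. The hepatocyte genes, which read low on that array and brightly on the others, went opposite to Isg15, Parp9, Nlrc5 and Irgm2 and with Ifit3b. For Isg15, Parp9 and Nlrc5 the difference between groups was larger without that array than with it, at 1.47, 0.33 and 0.48.

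Few other genes of the pathway could be read under a symbol. Of 288 other genes in 13 lists (interferon ligands, receptors and signalling, ISG15 conjugation, IFIT and antiviral genes, PARP and Deltex proteins, immunity-related and guanylate-binding GTPases, nucleic acid sensors, MHC class I and II, peptide loading, NLR proteins and inflammatory cytokines), 5 were measured under a symbol. The others may be on the array without a symbol. None of the 5 passed limma's test in either direction, where 1.21% of all targets did, and 1 had an unadjusted p under 0.05, as did 17.0% of all targets. Their differences ran from -0.20 for Ifnar2 to 0.55 for Zc3h12a, with a median of 0.17, beside 0.01 over all targets. Among them is the 0.31 of Ifit1bl1, which read at or near background, so no lean is read from this median. The enzymes that attach ISG15, the STAT and IRF factors, the MHC class I heavy chains and the other immunity-related GTPases were not analysed here, so the neighbours of the 6 genes in the pathway are largely unseen.

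Ifnar2, a chain of the type I interferon receptor, had log2 intensities of 12.77 ± 0.21 in knockdown and 12.97 ± 0.13 in control cells (SD, n = 3) and differed by -0.20 (SE 0.15, adjusted p = 0.55 by limma). Apobec3, a cytidine deaminase that restricts retroviruses, had 10.95 ± 0.19 and 10.78 ± 0.13 (SD, n = 3) and differed by 0.17 (SE 0.14, adjusted p = 0.59 by limma). Ifit1bl1, of the same family as Ifit3b, was at or near background, at log2 intensities of 3.82 to 6.68 over the knockdown arrays and 4.57 to 5.12 over the controls. On 1 knockdown and 1 control array its intensity was at or below 24.5, the highest level of the random-sequence probes, so its fitted difference of 0.31 (SE 0.69, limma adjusted p = 0.85) is not a measured change. Canx, the chaperone calnexin that helps fold MHC class I chains, had 10.25 ± 0.05 and 10.41 ± 0.10 (SD, n = 3) and differed by -0.16 (SE 0.11, adjusted p = 0.52 by limma), with the knockdown arrays below the control arrays by a gap of only 0.0012; 13.0% of all targets were separated in this direction.

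Zc3h12a, the ribonuclease Regnase-1 that degrades transcripts of inflammatory cytokines, came nearest to the threshold among the 5. It was taken from the list of inflammatory cytokine genes, not from a list of interferon or antigen-presentation genes. Its log2 intensity was 9.07, 9.06 and 9.06 on the knockdown arrays and 8.52, 8.57 and 8.43 on the control arrays, with no overlap. The difference was 0.55 (SE 0.10, limma adjusted p = 0.074). It passed in 4 of 7 other settings, with limma adjusted p of 0.0089 to 0.23 over the 7, and in none of the 6 with an array left out (0.18 to 0.21). The lists were chosen with earlier results of these data known, so these passes describe the fits and are not a test of the pathway.

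**Figure D4:**
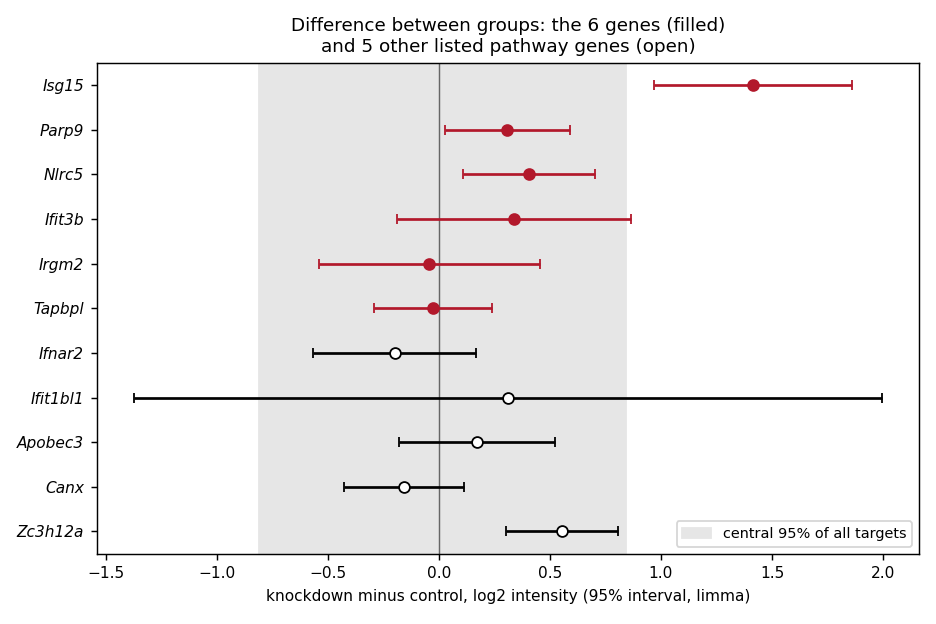
Difference between knockdown and control in log2 intensity with limma's 95% interval (n = 3 arrays per group) for the 6 genes (filled) and the 5 other pathway genes measured under a symbol (open), over a grey band that holds the central 95% of all targets (-0.81 to 0.84). Isg15 lies outside the band, the other 10 points lie inside it, and the interval of Ifit1bl1, which read at or near background, is the widest.

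The genes with a symbol whose profile over the 6 arrays came nearest to each of the 6 genes were found by the root mean square distance between log2 profiles, each centred on its own mean but not scaled. The search covered 534 or 535 other named genes at or above the median level. It is a description of 6 arrays and uses the same values as the comparison above. For Isg15 the nearest were Speg (distance 0.18), Gmds (0.33) and Myl6b (0.36), where the median of the candidates was 0.76. Speg, a muscle-type protein kinase, shared with Isg15 its highest value on knockdown replicate 2 and its lowest knockdown value on replicate 3. For Parp9 they were Cc2d1a, Pigs and Tomm40, at distances of 0.066 to 0.071. For Nlrc5 they were Cisd3, Snora68 and Eftud2, at 0.064 to 0.069, each with a difference between groups of 0.37 to 0.38, close to the 0.40 of Nlrc5.

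**Figure D5:**
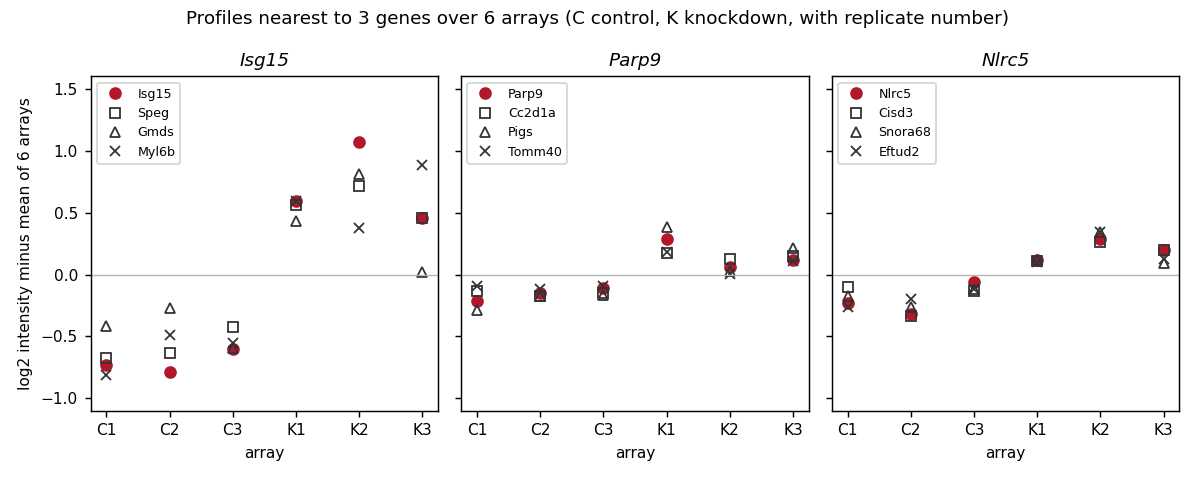
Log2 intensity minus the mean of the 6 arrays for Isg15, Parp9 and Nlrc5 (red) and the 3 named genes nearest to each (black symbols), with control (C) and knockdown (K) arrays and their replicate numbers on the horizontal axis. Isg15 and Speg, at a distance of 0.18, nearly coincide on knockdown replicates 1 and 3, and the neighbours of Parp9 and Nlrc5 follow them within small distances.

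Snord35b, Anxa9 and Trmt61a came nearest to Ifit3b, at distances of 0.16 to 0.18, and like it had their lowest value on control replicate 3. Nfya, Plekhn1 and Gatd1 came nearest to Irgm2, at 0.12 to 0.14, and all 3 had their lowest value on knockdown replicate 2, as Irgm2 did. Crem, Klhdc4 and Gigyf2 came nearest to Tapbpl, at 0.042 to 0.051, close to the 0.062 that is the size of the Tapbpl profile itself.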

How the data were processed

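Cy3-labelled total RNA of 6 cultures was read on 1-colour NimbleGen arrays. The authors deposited linear intensities, 1 per target and array, obtained by RMA according to the submitters' processing notes. Its version and settings, and the genome build behind the probes, are not given in the sources used here. RMA commonly includes quantile normalization, which removes a shift shared by all targets.

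Intensities were converted to log2. All 44170 targets were compared with limma 3.58.1 in R 4.3.3 (knockdown minus control, no block, no filter, Benjamini-Hochberg adjusted p under 0.05, two-sided), and the fit was tested on simulated data. Accessions were named through RefSeq (GRCm38.p6), which gave a symbol to 1267 targets (2.87%). A gene's brightest target stood for it in lists. Promoters were searched in Python 3.11.15 and figures drawn with matplotlib 3.10.9.

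The members and lists were chosen with earlier results of these data known. The rule for named genes took the 6 members, in each list the genes past the test or else that with the lowest adjusted p, and the 3 nearest profiles. Canx, Ifnar2, Apobec3, Ifit1bl1 and Zc3h12a are each the only gene of their list measured under a symbol. Of the marker lists, epithelial (Esrp1, difference 0.13) and erythroid genes (Hba-a2, 0.14, and Alas2, 0.26) were measured under a symbol too and did not pass the test. Hba-a2 read brightly on every array, at log2 intensities of 11.65 to 12.29 in knockdown and 11.63 to 11.94 in control cells. Why this erythroid marker read brightly was not tested. T and NK cell, B cell, neutrophil and mast cell, dendritic cell and fibroblast markers were not analysed here. Alternatives were the replicate block, the series table, 1 target per gene, quantile normalization, a filter, an offset, another variance model and leaving out each array.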

Additional observations from a re-analysis of the deposited data

How the results depend on the processing

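For the 6 genes, the replicate block, the deposited series table and the filter at the median level (Ifit3b was not in it) leave the difference as it is by construction. Quantile normalization, an offset of 50 and leaving out each array can move it. Over these, Isg15 ranged from 1.23 to 1.54, Parp9 from 0.24 to 0.36, Nlrc5 from 0.35 to 0.48 and Ifit3b from 0.15 to 0.56. Irgm2 (-0.18 to 0.16) and Tapbpl (-0.08 to 0.01) changed sign when single arrays were left out, so neither has a settled direction. Isg15 passed limma's threshold in 6 of 7 settings, all but the replicate block, and in 0 of 6 with an array left out. Nlrc5 passed in 1 of 7, the filter at the median level (adjusted p = 0.0496), and Parp9 in none (adjusted p 0.085 to 0.39). Since the genes were selected on this comparison, these passes describe the fits and are not a test of the genes.

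Over all targets, 223 were higher and 313 lower by limma. The numbers were 0 and 0 with the replicate block (3202 and 3340 at an unadjusted p under 0.05), 739 and 1069 in the series table, 585 and 833 after an offset of 50 was added, 1094 and 1403 with trend and robust variance fitting, and 948 and 1245 at or above the median level. With any single array left out, the higher targets numbered 0 to 117 and the lower ones 1 to 109. Of the pathway genes, 1 (Zc3h12a) passed in the series table, with the offset of 50, with trend and robust fitting and at or above the median level. The cause was not tested, beyond the smaller number of targets or arrays that some settings use by construction. Replicate numbers showed no pairing: knockdown and control arrays of the same number correlated at -0.026, -0.011 and 0.00 in their departures from the group mean. Signal over background limits Ifit1bl1 most. Ifit3b, the dimmest of the 6 genes by mean, read above the random-sequence probes on every array, and its control values spread widely.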

Other observations

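The ISRE-type and GAS-type motifs of Isg15, Ifit3b and Irgm2 were also looked for in the promoter windows of the other named genes on the array, a look chosen after the data were seen. Of 917 such genes with a window in the table, 29 held the ISRE-type motif. None of the 29 passed limma's test, against 3 higher and 7 lower of the 917. Several of the 29 had log2 means near background and could hardly show a change. Examples are Pnma5 (4.08 in knockdown and 4.08 in control cells) and Btbd35f28 (4.25 and 4.09). Nothing is therefore read about the motif from the counts of the 29. An unadjusted p under 0.05 was found for 4 of the 29 (13.8%) and 165 of the 917. Their median difference between knockdown and control was -0.04, beside 0.00 over the 917. All knockdown arrays lay above all control arrays for 1 of the 29 (3.45%), against 11.1% of the 917, and below them for 5 (17.2%), against 13.7%. The gene above was Cyp4a32, a cytochrome P450, with a difference of 1.27 (limma adjusted p = 0.24). Its intensity ran from 48.3 to 282, and the random-sequence probes read up to 24.5. Those below were Sv2b, a synaptic vesicle protein (-1.05), Kif1a, an axonal transport kinesin (-0.94), Ttyh1 (-0.45), Rnf146, a ubiquitin ligase that recognises poly-ADP-ribose (-0.18), and Ccdc73. Ccdc73 was at or below the level of the random-sequence probes on all 3 knockdown arrays, so no size is given for it. These 6 genes are named after their values were seen.

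The GAS-type motif was held by 66 of the 917 genes. None of these passed limma's test, against 3 higher and 7 lower of the 917. An unadjusted p under 0.05 was found for 7 (10.6%), against 165 of the 917. The median difference of the 66 was -0.04, beside 0.00 over the 917. All knockdown arrays lay above all control arrays for 6 of the 66 (9.09%), against 11.1% of the 917, and below them for 5 (7.58%), against 13.7%. Several of the 66 also had log2 means near background, as Gabra6 did (4.34 in knockdown and 4.35 in control cells). Nothing is therefore read about this motif from these counts.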
